A study of Homo sapiens with 4 samples.

Results

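The genes described here are 8 human genes of the interferon response and of class I antigen processing, namely ISG15, PARP9, IFI27L2, IFITM3, CMPK2, NMI, PSMB9 and TAP1. They were taken by symbol from a deposited table of 3200 genes, and each matched 1 row. They were measured by poly-A RNA-seq in K562 cells, an established chronic myeloid leukaemia line that carries the BCR-ABL fusion. The study compared 4 libraries, 1 per group. The parental group was K562 without vesicles. The resistant group was K562/IMR, a derivative of K562 labelled resistant to imatinib, an inhibitor of the BCR-ABL kinase, also without vesicles. The R-Exo and S-Exo groups were K562 cells given the vesicles of those names for 48 h. R-Exo was read as exosomes of resistant cells and S-Exo, the control that the series names, as exosomes of sensitive cells. The sources used here do not say whether the resistant line is a single clone. No group had a replicate, so the spread within a group is unknown and no difference below has a test or an error.

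Interferons act through receptors that switch on JAK kinases, which phosphorylate STAT transcription factors. Complexes of STAT proteins with IRF9 bind a DNA element called the ISRE (interferon-stimulated response element), and STAT pairs bind the GAS (gamma-activated site). The genes behind these elements encode antiviral proteins, parts of the pathway itself, and the proteasome subunits and transporters that load peptides onto MHC class I. K562 cells are known for carrying very little MHC class I on their surface, which is why they are a standard target for natural killer cells.

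The promoters are shown because 6 of the 8 genes share letters of the ISRE there. RefSeq windows of 300 bases (250 before each annotated start and 50 after it, build GRCh38.p14) were found for 8 of 8 genes, 12 windows in all. The ISRE was searched as GAAANNGAA and the GAS as TTCNNNGAA, each on both strands. The ISRE letters stood in 6 of the 12 windows, against 8.11% of all 35116 windows in the RefSeq table. They stood in at least 1 window of ISG15, PARP9, IFITM3, CMPK2, NMI and TAP1, so in 6 of 8 genes, against 9.86% of 27305 genes. IFI27L2 and PSMB9 held no match in their windows. The GAS letters stood in 2 of the 12 windows, 1 of NMI and 1 of TAP1, against 7.66% of all windows, and they overlapped no ISRE match. The members were picked as genes of the interferon response, which works through these elements. A share above that of all genes was therefore likely beforehand, and nothing is read from it. A match describes letters in a window and says nothing of whether a factor binds there.

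The next lines give, 5′ to 3′ on the strand of the gene, the 200 bases before the start of 3 genes whose ISRE letters lie near it, with the matched letters in capitals. ISG15 lies at chr1:1013297-1013496 (plus strand), IFITM3 at chr11:320861-321060 (minus strand) and TAP1 at chr6:32853705-32853904 (minus strand).
ISG15: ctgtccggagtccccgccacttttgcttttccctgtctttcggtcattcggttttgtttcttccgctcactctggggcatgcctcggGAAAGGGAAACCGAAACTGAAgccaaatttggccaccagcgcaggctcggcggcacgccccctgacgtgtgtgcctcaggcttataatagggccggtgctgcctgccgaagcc
IFITM3: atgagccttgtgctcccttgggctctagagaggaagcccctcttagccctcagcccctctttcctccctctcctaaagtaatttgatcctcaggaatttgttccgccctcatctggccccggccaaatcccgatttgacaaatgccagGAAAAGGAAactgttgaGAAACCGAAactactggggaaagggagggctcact
TAP1: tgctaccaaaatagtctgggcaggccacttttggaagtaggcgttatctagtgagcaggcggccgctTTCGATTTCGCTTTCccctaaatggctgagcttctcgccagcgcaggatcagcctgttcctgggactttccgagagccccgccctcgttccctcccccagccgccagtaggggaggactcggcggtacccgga
ISG15 held 3 overlapping matches, whose first bases lay 113, 107 and 101 bases before the start. IFITM3 held 2 separate matches, at 52 and 35 bases. TAP1 held 2 overlapping ones on the other strand, at 133 and 127 bases. The TAP1 stretch lies in the space between TAP1 and PSMB9, whose RefSeq starts face away from each other 488 bases apart.

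NMI and IFI27L2 are shown as the member with the largest difference and the only member that was higher in resistant cells. NMI lies at chr2:151289669-151289868 and IFI27L2 at chr14:94129605-94129804, both on the minus strand. For PARP9 only 30 bases around the match are given (chr3:122564321-122564350, minus strand), since the neighbouring gene DTX3L starts there.
NMI: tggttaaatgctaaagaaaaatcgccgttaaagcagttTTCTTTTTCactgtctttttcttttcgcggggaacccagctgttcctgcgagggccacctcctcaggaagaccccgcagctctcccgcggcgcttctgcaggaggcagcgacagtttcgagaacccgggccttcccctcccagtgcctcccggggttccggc
IFI27L2: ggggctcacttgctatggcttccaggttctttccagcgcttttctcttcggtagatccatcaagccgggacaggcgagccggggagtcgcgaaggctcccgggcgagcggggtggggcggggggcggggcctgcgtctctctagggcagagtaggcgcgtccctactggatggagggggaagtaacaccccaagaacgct
PARP9: ggcgcaaagtTTCAGTTTCgcttccctgga
The single NMI match began 162 bases before the start, farther out than those of ISG15, IFITM3 and TAP1. The PARP9 match began 40 bases before 1 of its 2 starts. RefSeq places that start and the DTX3L start 38 bases apart on opposite strands, and the same bases lie in the DTX3L window. In CMPK2 the match began at base 6 after the start of 1 of 3 windows and is not printed. RefSeq places that start and a start of the neighbouring gene RSAD2 66 bases apart on opposite strands. The same bases lie in that RSAD2 window.

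The libraries fell into like pairs, and 1 of them went against its label in this respect. Expression is given in FPKM, fragment counts divided by gene length and by library size. On the log2(FPKM + 1) scale, Pearson's r across the 3200 genes was 0.977 for parental with S-Exo and 0.974 for resistant with R-Exo, and 0.729 to 0.736 for the other 4 pairs. The library labelled R-Exo is described as K562 cells, not K562/IMR, yet ABCB1, the drug efflux pump gene, stood at 677 FPKM in it and 778 in resistant, against 0.222 in parental and 0.0985 in S-Exo. From these values, K562 cells given vesicles and RNA of the resistant line cannot be told apart in the R-Exo library, so its differences are given as differences between libraries. The depth of the libraries is unknown. Erythroid markers of K562 were present: of 14 markers looked up, 3 were listed, GYPB, HBZ and TFRC, with a summed level of 722 to 762 FPKM in parental and S-Exo and 1305 to 1443 in resistant and R-Exo. HBZ made up most of each sum, at 480 and 533 FPKM in parental and S-Exo and 1101 and 1253 in resistant and R-Exo, while TFRC ran the other way, from 224 and 214 to 114 and 98.6. Of 20 markers of other leukocytes, 3 were listed, CD3D, CD22 and PRF1, none of them at 0. They summed to 1.49 FPKM in parental, 1.86 in S-Exo, 13.2 in resistant and 12.02 in R-Exo. CD3D and CD22 were the ones higher in resistant and R-Exo, and PRF1 was lower there, at 0.175 and 0.193 FPKM against 0.518 in parental and 0.559 in S-Exo. The part of these markers in the results below was not tested.

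A difference is given as log2(FPKM + 1) in the first library minus the same in the second, a scale that understates changes at low levels. A gene was compared where either library reached 1 FPKM, and a difference of at least 1 either way was counted. In bulk RNA, fewer cells expressing a gene and less RNA per cell cannot be told apart. The genes of the table had been chosen by the authors for differing between groups, so a counted difference is common in it.

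Most of the members were lower in resistant than in parental cells, and IFI27L2 was higher. The largest log2(FPKM + 1) difference was in NMI, which encodes an interferon-induced partner of STAT proteins and was 17.6-fold lower. The order of the other lower members depended on the scale: TAP1, the peptide transporter gene, had the smallest counted log2(FPKM + 1) difference but was 4.24-fold lower, against 2.22-fold for IFITM3. In all, 7 of 8 members were counted as lower, against a background of 18.1% of the 2151 genes compared, and 1 of 8 as higher, against 28%. Re-scaled so that the median difference over all compared genes was 0, 7 members were lower and 0 higher, and the background became 35.1% lower and 12.8% higher. The members had been chosen with these results known, so nothing is read from these counts. The median difference was -1.20 over the members and 0.42 over all compared genes. Of the 8, 3 reached 1 FPKM in both libraries, 4 (PARP9, CMPK2, PSMB9 and TAP1) only in parental and 1 (IFI27L2) only in resistant.

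**Figure D1:**
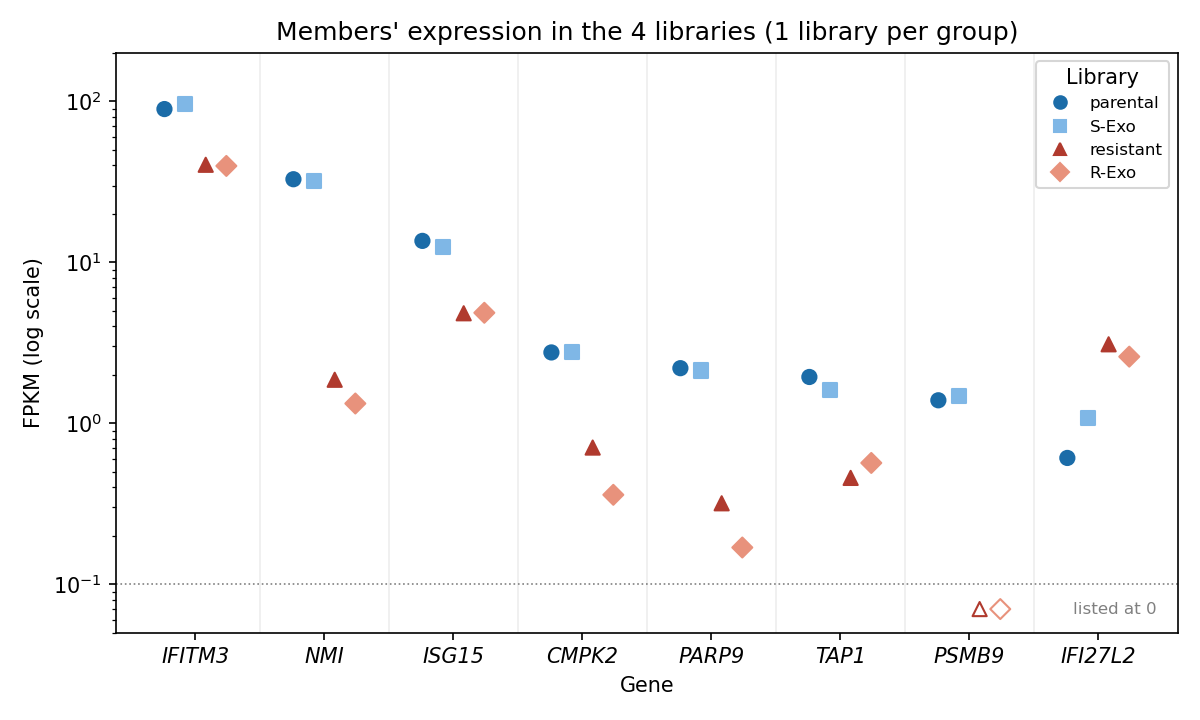
FPKM of the 8 members (log axis) in each of the 4 libraries, 1 point per library; open symbols under the dotted line are values listed at 0. The resistant and R-Exo points both lie below the parental and S-Exo points in 7 genes, and both above them in IFI27L2. Points of a like pair lie apart in CMPK2 (0.706 in resistant, 0.359 in R-Exo) and PARP9 (0.318 and 0.169). They also lie apart in IFI27L2 (0.609 in parental, 1.08 in S-Exo).

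ISG15 encodes a ubiquitin-like protein that is attached to other proteins after interferon. It is annotated in GENCODE 29 (GRCh38) as a protein-coding gene on chromosome 1 from 1001138 to 1014540, identifier ENSG00000187608. Its level was 13.6 FPKM in parental, 12.4 in S-Exo, 4.82 in resistant and 4.86 in R-Exo. The resistant and R-Exo libraries were the low ones and differed from each other by 0.01 (log2 scale). Resistant was 2.82-fold lower than parental (log2 difference -1.33) and R-Exo 2.55-fold lower than S-Exo (-1.19).

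Some enzymes that attach or remove ISG15 were listed too, and UBE2L6, UBA7 and USP18 are described here. UBE2L6, the conjugating enzyme of the ISG15 pathway, showed a larger difference than ISG15 itself. It stood at 11.8 FPKM in both parental and S-Exo, at 1.15 in resistant and at 0.745 in R-Exo. That is 10.2-fold lower in resistant than in parental (-2.57) and 15.8-fold lower in R-Exo than in S-Exo (-2.87). Neither RefSeq window of UBE2L6 held the ISRE or GAS letters. UBA7, the activating enzyme, had 0.252, 0.348, 0.0567 and 0.0446 FPKM in parental, S-Exo, resistant and R-Exo. USP18, the protease that removes ISG15, had 0.964 FPKM in parental and 0.8002 in S-Exo, and both other libraries list it at 0. Both lay under 1 FPKM everywhere, so neither was compared, and they are named here after their values had been seen. The effector, conjugation and class I lists described below held 14 such low genes in all. Of these, 8 were lower in both resistant minus parental and R-Exo minus S-Exo, 4 (MX2, SAMD9, GBP2 and GBP4) were higher in both and 2 did not run one way, all without reaching the limit.

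PARP9 encodes a member of the ADP-ribosyltransferase family that works in a complex with the ubiquitin ligase DTX3L. It lies on chromosome 3 from 122527924 to 122564577 (GENCODE 29, ENSG00000138496). PARP9 had 2.20 FPKM in parental, 2.13 in S-Exo, 0.318 in resistant and 0.169 in R-Exo, so its differences were -1.28 (6.92-fold lower) and -1.42 (12.6-fold lower). DTX3L had 1.99, 2.34, 0.526 and 0.437 FPKM in the same order, with differences of -0.97, just short of the limit, and -1.21. Both partners were low in the same 2 libraries. Their gene models overlap by 340 bases on opposite strands. The sources used here do not say whether the counting used strand, so reads of the overlap cannot be assigned, and the pair is not a set of independent observations.

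NMI lies on chromosome 2 from 151270465 to 151290057 (ENSG00000123609). Its level was 32.9 FPKM in parental and 31.9 in S-Exo, and 1.86 in resistant and 1.33 in R-Exo. It was 17.6-fold lower in resistant than in parental (-3.56) and 24.1-fold lower in R-Exo than in S-Exo (-3.82). The other lower members lay between -1.33 and -1.01 in resistant minus parental and between -1.47 and -0.73 in R-Exo minus S-Exo. That gap depended on the pseudocount. At 0.1, NMI stood at -4.07 and -4.49, PSMB9 at -3.90 and -3.98, and PARP9 at -2.46 and -3.05. ISG15 then stood at -1.48 and -1.33, and IFITM3 at -1.15 and -1.27. In parental cells NMI exceeded 96.6% of the listed genes, and in resistant cells 60.6%.

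IFITM3 encodes a membrane protein that blocks the entry of viruses from endosomes, and it was the most abundant member per length in every library. It lies on chromosome 11 from 319669 to 327537 (ENSG00000142089). IFITM3 had 89.7 FPKM in parental, 96.2 in S-Exo, 40.4 in resistant and 39.7 in R-Exo. The differences were -1.13 and -1.26, or 2.22-fold and 2.42-fold lower. IFITM3 has close paralogs with which it can share reads, so its level is uncertain. CMPK2, which encodes a nucleotide kinase of mitochondria, lies on chromosome 2 from 6840570 to 6866635 (ENSG00000134326). It had 2.75 FPKM in parental, 2.76 in S-Exo, 0.706 in resistant and 0.359 in R-Exo, with differences of -1.14 (3.90-fold lower) and -1.47 (7.69-fold lower). RSAD2, the gene of the antiviral enzyme viperin, overlaps CMPK2 by 830 bases on the opposite strand. It had 0.493, 0.313, 0.122 and 0.173 FPKM in parental, S-Exo, resistant and R-Exo, under the minimum for a comparison, and is named after its values had been seen.

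IFI27L2 belongs to the IFI27 family of small interferon-related proteins and was the member that ran the other way. It lies on chromosome 14 from 94127779 to 94130253 (ENSG00000119632). Its level was 0.609 FPKM in parental and 1.08 in S-Exo, and 3.09 in resistant and 2.59 in R-Exo. The difference was 1.35 for resistant minus parental (5.08-fold) and 0.79 for R-Exo minus S-Exo, which was not counted. IFI27L1, its neighbour on chromosome 14, had 10.3 FPKM in parental, 12.2 in S-Exo, 23.2 in resistant and 19.4 in R-Exo, with differences of 1.10 and 0.63. Re-scaled so that all compared genes had a median of 0, IFI27L2 stood at 0.93 in resistant minus parental and was no longer counted.

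PSMB9 encodes a catalytic subunit of the immunoproteasome, which cuts proteins into peptides suited to MHC class I, and TAP1 encodes a subunit of the transporter that carries those peptides into the endoplasmic reticulum. PSMB9 lies on chromosome 6 from 32844136 to 32859585 (ENSG00000240065) and TAP1 from 32845209 to 32853978 (ENSG00000168394). PSMB9 had 1.39 FPKM in parental and 1.48 in S-Exo. Its value is 0 in both resistant and R-Exo, so no fold is given. TAP1 had 1.94 FPKM in parental, 1.60 in S-Exo, 0.457 in resistant and 0.567 in R-Exo. Both genes were low in the same 2 libraries, and neither passed 2 FPKM in any. The TAP1 difference was -1.01 for resistant minus parental, just past the limit, and -0.73 for R-Exo minus S-Exo, short of it. In GENCODE 29 the longest PSMB9 model spans the whole of TAP1, 8770 bases, on the opposite strand, so the 2 values cannot be treated as independent.

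By the labels, R-Exo minus S-Exo sets K562 cells given vesicles of resistant cells against those given vesicles of sensitive cells, but the R-Exo library resembled the resistant line as described above, and no effect of vesicles is read from it. In R-Exo all members but TAP1 and IFI27L2 were counted as lower, and 0 as higher. This was 6 of 8 against a background of 21.2% lower and 23.2% higher among 2154 genes compared. Re-scaled, the member counts were the same and the background was 31.5% lower and 15.4% higher. The median difference was -1.28 over the members and 0.21 over all compared genes. Of the 8, 4 reached 1 FPKM in both libraries and 4 only in S-Exo. Against parental in place of S-Exo, the R-Exo library gave 6 members lower and 1, IFI27L2, higher, with backgrounds of 21.5% and 23.5%. The 6 members counted as lower in R-Exo minus S-Exo were also lower in resistant minus parental. These comparisons share no library, but r was 0.974 for resistant with R-Exo and 0.977 for parental with S-Exo. The second is therefore no independent repeat of the first, and nothing is read from the overlap. Of the 390 genes lower in resistant minus parental, 276 were also lower in R-Exo minus S-Exo. Among the 1986 genes compared in both, 13.9% were lower in both.

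**Figure D2:**
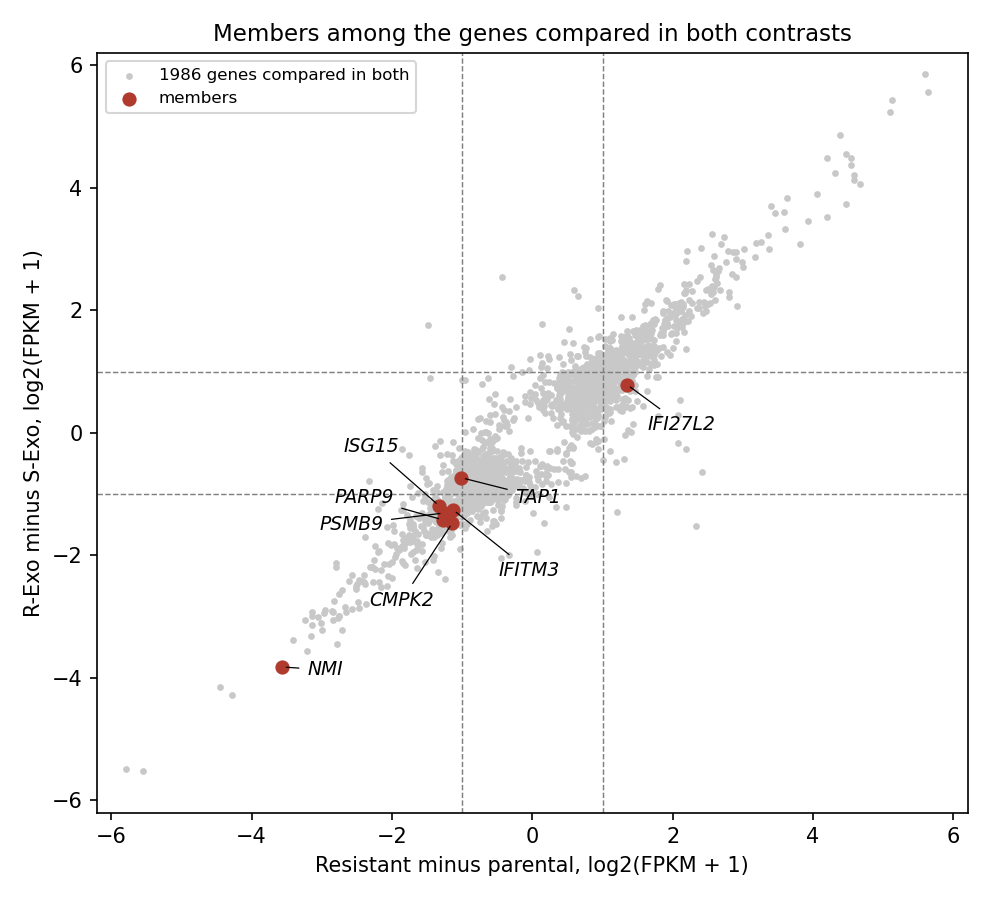
Each grey point is 1 of the 1986 genes compared in both contrasts, with the resistant minus parental difference on the x axis and R-Exo minus S-Exo on the y axis, both in log2(FPKM + 1); dashed lines mark a difference of 1 and 3 genes lie beyond the axes. NMI sits apart from the other members at -3.56 and -3.82, 5 lower ones gather just past the limit in both, TAP1 lies past it in resistant only, and IFI27L2 is on the higher side.

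Neither vesicle library differed from the library it resembled by the size limit in any member compared. For S-Exo minus parental, 0 of 8 members were counted, against 2.84% of 1723 genes in either direction, and the largest member difference was 0.37 in IFI27L2. For R-Exo minus resistant, 4 members reached 1 FPKM in one or both libraries and 0 of these were counted, against 2.82% of 1879 genes. Their differences ran from -0.30 in NMI to 0.01 in ISG15. CMPK2 and PARP9 were too low to compare there, at 0.359 and 0.169 FPKM in R-Exo and 0.706 and 0.318 in resistant.

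In the wider interferon pathway, effector genes were counted in both directions in the values as deposited, and in the lower direction alone after re-scaling. The list of interferon-stimulated effector genes had 77 entries, of which 26 were listed and 16 compared in resistant minus parental. Of the 16, members included, 5 were higher and 4 lower, against 28% and 18.1% of all genes, with a median of 0.23. The 4 lower ones were the members NMI, ISG15, CMPK2 and IFITM3. The 5 higher ones were IFI27L2, IFI27L1, TRIM5, SP110 and GBP5. TRIM5, whose product restricts retroviruses, had 4.76 FPKM in parental, 4.79 in S-Exo, 12.7 in resistant and 12.1 in R-Exo. SP110, a nuclear body protein gene, had 0.770, 1.21, 3.20 and 2.87 in that order. GBP5, which encodes an interferon-induced GTPase, was listed at 0 in parental and S-Exo and had 1.32 and 1.09 FPKM in resistant and R-Exo.

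In R-Exo minus S-Exo, 4 of the 16 compared effector genes were higher and 5 lower, against 23.2% and 21.2% of all genes, with a median of -0.05. The higher ones were TRIM5, GBP5, IFI16 and TRIM21. IFI16, a DNA sensor gene, had 0.484 FPKM in parental, 0.274 in S-Exo, 1.71 in resistant and 1.94 in R-Exo. TRIM21, which encodes a receptor for antibodies in the cytosol, had 4.46, 3.59, 9.12 and 9.03 in that order. APOL1, a lipid-binding protein gene, joined the 4 lower members with 4.02 FPKM in parental, 4.94 in S-Exo, 1.76 in resistant and 1.44 in R-Exo. The higher side depended on scaling: re-scaled to a median of 0 over all compared genes, a shift of 0.42 in resistant minus parental and 0.21 in R-Exo minus S-Exo, 0 effector genes were higher and 7 lower in each, with medians of -0.19 and -0.26. After quantile normalization 4 were higher and 5 lower in each.

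Leaving the 8 members out of the effector, conjugation and class I lists, 13 further genes were compared in resistant minus parental, with 4 higher, 1 (UBE2L6) lower and a median of 0.50, against the same 28% and 18.1%. In R-Exo minus S-Exo 14 were compared, with 4 higher, 3 (UBE2L6, DTX3L and APOL1) lower and a median of -0.05, against 23.2% and 21.2%. These directions depended on scaling. Re-scaled, 0 of these genes were higher in either comparison, against 12.8% and 15.4% of all genes. UBE2L6, DTX3L, APOL1, EIF2AK2 and DDX60L were then lower in both, and TAPBPL in R-Exo minus S-Exo, against 35.1% and 31.5%. The 2 lists that follow have too few compared genes to set beside these shares. The conjugation and ADP-ribosylation list itself had 12 entries and 6 listed genes. Of its 3 compared genes, UBE2L6, PARP9 and DTX3L, 2 were lower in resistant and 3 in R-Exo, and 0 were higher. The class I list had 27 entries and 4 listed genes, with 2 of 2 compared lower in resistant and 1 of 3 in R-Exo. The count in R-Exo became 3 of 3 with a pseudocount of 0.1, and 2 of 3 re-scaled or after quantile normalization. The other 2 class I genes listed were TAPBPL and ERAP2. No HLA class I gene was listed, so the levels of those genes are unknown here.

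**Figure D3:**
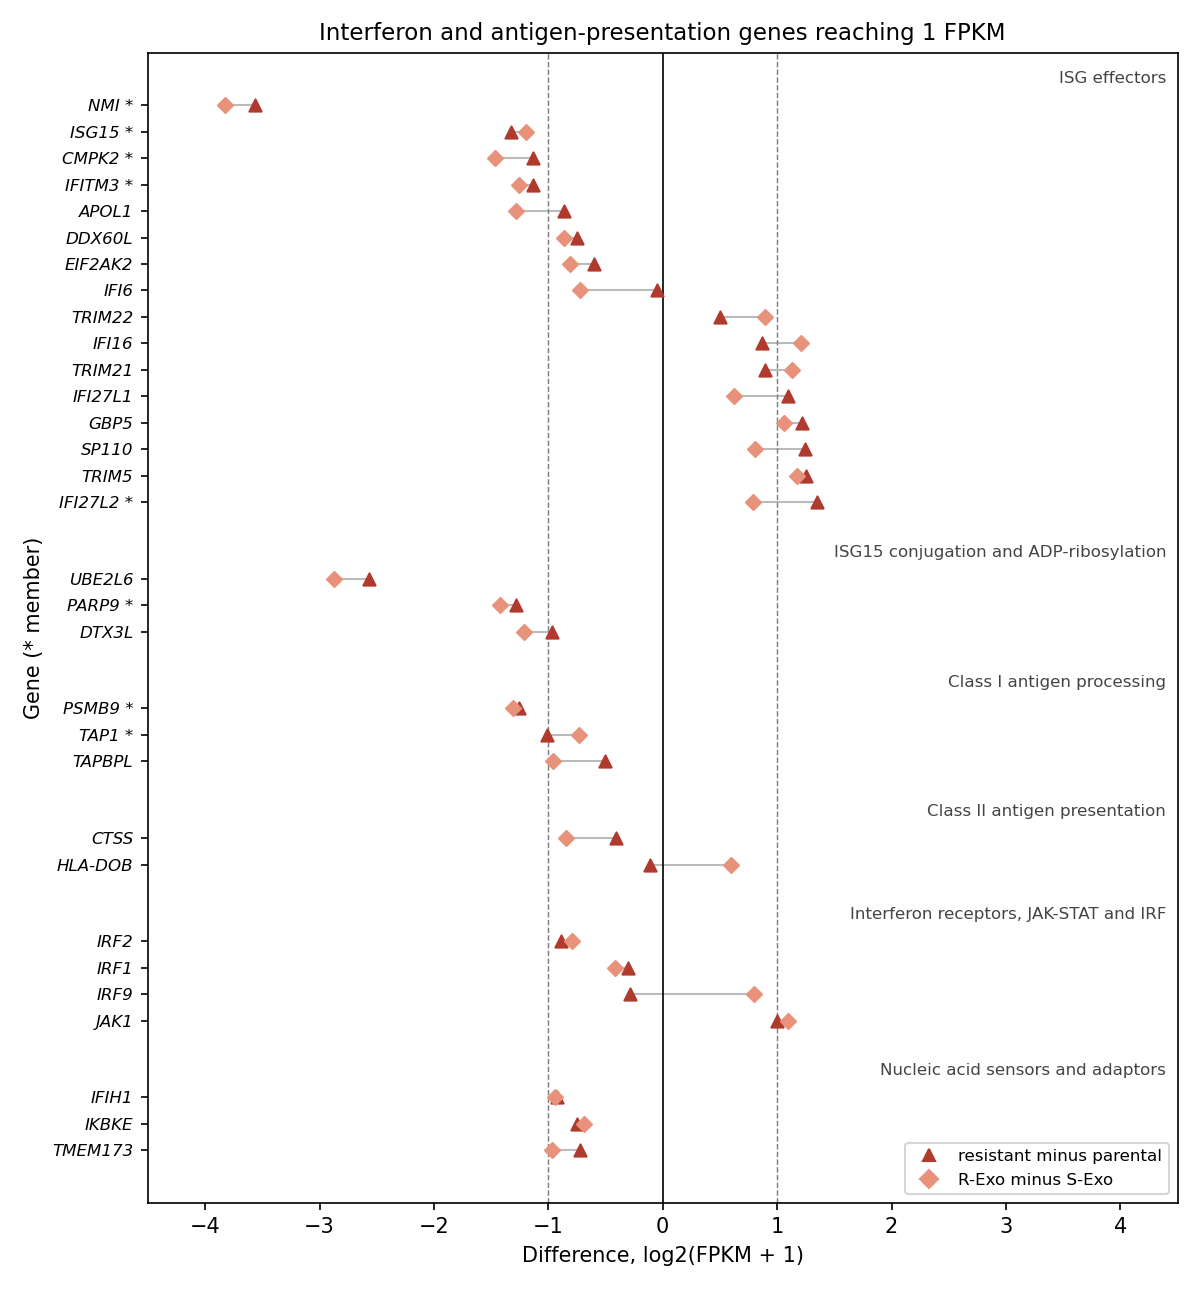
Differences in log2(FPKM + 1) of the 31 genes of the interferon and antigen-presentation lists that reached 1 FPKM in some library, triangles for resistant minus parental and diamonds for R-Exo minus S-Exo, with dashed lines at a difference of 1 and members starred. NMI and UBE2L6 lie farthest to the left, and the effector list holds genes on both sides of 0.

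Upstream of these genes, few differences reached the limit with a pseudocount of 1. None of 22 interferon ligand genes was among the genes listed, so their levels are unknown here. Of 31 receptor, JAK-STAT and IRF genes 4 were listed. JAK1, the kinase shared by interferon receptors, had 15.8 FPKM in parental, 13.9 in S-Exo, 32.5 in resistant and 30.8 in R-Exo, a difference of 0.999 that fell just under the limit in resistant and of 1.10, counted, in R-Exo. Of the other 3, the transcription factor genes IRF1, IRF2 and IRF9, none was counted in either comparison, and IRF9 was too low to compare in resistant minus parental. This depended on scaling: re-scaled or after quantile normalization JAK1 was no longer counted, while IRF2 was counted as lower in resistant (-1.31 and -1.04) and, re-scaled, in R-Exo (-1.004). IRF9 had 0.617 FPKM in parental, 0.697 in S-Exo, 0.324 in resistant and 1.95 in R-Exo. In R-Exo minus resistant it was counted as higher (1.16), where 2.82% of all genes were counted in either direction. Of 23 sensor and adaptor genes 4 were listed and 0 counted in either direction. Re-scaled, 2 of the 2 sensor genes compared were lower in resistant and 2 of 3 in R-Exo, and after quantile normalization 0 of 2 and 2 of 3. With a pseudocount of 0.1 in place of 1, 1 of 2 and 3 of 3 were lower. JAK1 was then counted as higher in resistant (1.04) and R-Exo (1.15), IRF2 as lower in resistant (-1.025) and IRF9 as higher in R-Exo (1.36). The sensor gene IFIH1 had 0.925 FPKM in parental, 1.11 in S-Exo, 0.0138 in resistant and 0.098 in R-Exo. With a pseudocount of 1 it fell short of the limit in R-Exo minus S-Exo (-0.94). In resistant minus parental it was too low to compare. The class II list had 2 of 15 genes listed, CTSS and HLA-DOB, with 0 counted. Re-scaled, 1 was lower in R-Exo. With a pseudocount of 0.1, CTSS was lower (-1.66) and HLA-DOB higher (1.035) in R-Exo minus S-Exo.

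The genes whose 4 values ran most like those of a member were found by the distance between centred log2(FPKM + 1) values over the 4 libraries, a small number on which many genes look alike. For ISG15 they were ADCK2, DCPS and ANKRD20A1, at distances of 0.06 each. For IFITM3 they were TRAPPC4, HTR1F and ZNF737, also at 0.06 each, of which TRAPPC4 had a like level (104 FPKM in parental, 46.5 in R-Exo). For TAP1 they were NCEH1, SECTM1 and RNF214, at 0.03 to 0.04. NMI had no such close match: the nearest were SELENOP at 0.33, DCAF4L2 at 0.47 and EREG at 0.58. The distance was not scaled for the size of a difference, and NMI had the largest log2(FPKM + 1) difference of the members. Its distances therefore cannot be set beside those of the other members. SELENOP, the gene of a selenium transport protein, had 35.6 FPKM in parental, 31.1 in S-Exo, 2.43 in resistant and 2.09 in R-Exo.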

How the data were processed

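Poly-A RNA of 4 K562 libraries, 1 per group, was sequenced. Groups came from the sample labels. The authors deposited 1 table of FPKM values, the unit being taken from its name, for 3200 genes that it calls differentially expressed; the sources used here give no rule for that choice, and name no build, annotation or counting tool. The submitters' processing notes list SAMtools 0.1.18, GATK, Picard and TopHat2 with no role. The values were used as deposited, and no column was left out.

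Among 195 genes between 0 and 0.15 FPKM in parental and S-Exo, 188 distinct log2 ratios were found at 3 decimals, so whole reads could not be recovered and no count test or interval was possible. With 1 library per group no p-value was computed. Differences of log2(FPKM + 1), the minimum of 1 FPKM and the limit of 1 are defined in the results; folds are plain FPKM ratios of values above 0. The calculation was tested on simulated data. Named genes were the 8 members, the genes of the fixed lists that reached 1 FPKM and the limit in resistant minus parental or R-Exo minus S-Exo, and the 3 genes most like each of ISG15, IFITM3, NMI and TAP1. Other genes fall outside this rule and were named after their values were seen. Among them are UBA7, USP18, RSAD2, EIF2AK2, DDX60L, IFIH1, TAPBPL, ERAP2, PRF1, CTSS, HLA-DOB, ABCB1, low effector genes and the IRF genes. The members and lists were chosen with earlier results of these data known. Of 241 list symbols, 238 were found in GENCODE 29 and 52 in the table; 2 further list genes are not reported here. Positions were matched by Ensembl identifier, which succeeded for 2288 of 2288 rows that carry one. Promoter sequences are from RefSeq (GRCh38.p14). Python 3.11.15, numpy 2.4.6, pandas 2.3.3 and matplotlib 3.10.9 were used.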

Additional observations from a re-analysis of the deposited data

How the results depend on the processing

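With 1 library per group, no library could be left out, and no paired analysis was possible because each group had 1 library and no test. No counted member difference changed sign in any other setting. The settings were a pseudocount of 0.1, no minimum, a minimum of 5 FPKM, quantile normalization and re-scaling (median difference set to 0). For R-Exo, the parental library also served as control. A minimum sets only which genes are compared. The 36 differences with no minimum and the 13 at a minimum of 5 FPKM therefore could not change. Of 165 recomputed member differences, these included, 152 kept their sign and their side of the limit. Of the others, 6 came to pass it, 2 ceased to and 5 uncounted ones changed sign. The 5 all lay within 0.1 of 0: in S-Exo minus parental CMPK2 (0.0029) re-scaled and after quantile normalization (-0.0075 and -0.033) and NMI (-0.040) after quantile normalization (0.014), and in R-Exo minus resistant IFITM3 (-0.023) under both (0.082 and 0.033). The 2 that ceased to pass it were IFI27L2 re-scaled, at 0.93 in resistant minus parental and 0.82 in R-Exo minus parental, so that 0 members were higher in either. In R-Exo minus S-Exo, IFI27L2 became the 1 member higher with a pseudocount of 0.1 (1.19) and with parental as control (1.16). TAP1 reached -1.35 there with a pseudocount of 0.1, and in R-Exo minus parental -1.61 with that pseudocount, -1.24 re-scaled and -1.004 after quantile normalization.

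At a minimum of 5 FPKM only 3 members (ISG15, IFITM3 and NMI) were compared in resistant minus parental, R-Exo minus S-Exo and R-Exo minus parental; 3 were lower and 0 higher in each. The background counts moved more. For resistant minus parental, 390 lower and 602 higher genes became 608 and 908 with a pseudocount of 0.1, 211 and 317 at a minimum of 5 FPKM, and 755 and 276 re-scaled. For R-Exo minus S-Exo, 456 and 499 became 758 and 776, 246 and 254, and (higher, re-scaled) 331. For R-Exo minus parental, 454 and 497 became 738 and 769, 256 and 245, and 759 and 279. S-Exo minus parental went from 49 to 126 (pseudocount 0.1) and 18 (minimum of 5 FPKM), and R-Exo minus resistant from 53 to 160 and 26. The higher share of counted genes in resistant minus parental was 60.7% as deposited, 26.8% re-scaled and 45.6% after quantile normalization; in R-Exo minus S-Exo it was 52.3%, 32.8% and 46.1%, and in R-Exo minus parental 52.3%, 26.9% and 44.8%. With 1 mismatch allowed among the 7 fixed letters of the ISRE, 6 of 8 members held it, against 65.4% of all genes, and 10 of the 12 windows of the 8 genes did, against 60.5% of all windows. Depth is unknown, so the values under 1 FPKM have no stated precision.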
